A study of Homo sapiens with 12 samples.

Results

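The BCL2 family of apoptosis regulators was followed across RNA sequencing libraries of HEK293T cells as 10 genes chosen by name: BCL2, BCL2L1, MCL1, BAX, BAK1, BBC3, PMAIP1, BCL2L11, BIK and BID. They are 10 of the 60604 genes in the count table, and all 10 passed the filter on low counts. HEK293T is a cell line from human embryonic kidney. It expresses large T, a p53-binding protein of simian virus 40, and holds the E1 region of an adenovirus, which encodes a viral relative of BCL2. The study made 12 libraries in 3 groups of 4, with 2 experiments on separate batches of cells and 2 technical replicates in each.

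The first group had no plasmid. Its labels name it once as cells that were not transfected and once as cells given the transfection reagents without DNA. The second group received a plasmid labelled sgRNA-dCas9-VP160-P2A-EGF without CD34 guides, and the third received it together with 6 guides against the promoter of CD34. The plasmids came to 5.4 pmol in all, and 48 h passed after transfection. The fusion dCas9-VP160 joins a viral transcription activator to a Cas9 that cannot cut DNA, and guides bring it to a chosen promoter. No group had a plasmid without dCas9-VP160, so that DNA delivery and the protein cannot be told apart. The share of cells that took up plasmid is not analysed here. In such bulk RNA a lower level in every cell and fewer cells with the RNA cannot be told apart either.

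BCL2 family proteins decide whether the outer mitochondrial membrane stays intact. Guardians such as BCL2, BCL-XL (BCL2L1) and MCL1 hold the pore formers BAX and BAK (BAK1) in check, and the BH3-only proteins PUMA (BBC3), NOXA (PMAIP1), BIM (BCL2L11), BIK and BID either block the guardians or activate the pore formers. An open pore releases cytochrome c, which assembles with APAF1 and activates caspases. Much of this control acts on proteins, through binding, cleavage and turnover, which RNA does not report. BCL2L1 and MCL1 also have splice forms of opposite function that counts per gene do not separate.

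The promoters of 3 genes are shown because BAK1 and BCL2L11 had the firmest changes, in opposite directions, and BAX is the other pore former. Each is the 250 bases before the RefSeq start (GRCh38.p14), 5′ to 3′ on the gene's strand, with motif matches in capitals. BAK1 lies on the minus strand at chr6:33580277-33580526, BCL2L11 on the plus strand at chr2:111120664-111120913 and BAX on the plus strand at chr19:48954625-48954874.
BAK1: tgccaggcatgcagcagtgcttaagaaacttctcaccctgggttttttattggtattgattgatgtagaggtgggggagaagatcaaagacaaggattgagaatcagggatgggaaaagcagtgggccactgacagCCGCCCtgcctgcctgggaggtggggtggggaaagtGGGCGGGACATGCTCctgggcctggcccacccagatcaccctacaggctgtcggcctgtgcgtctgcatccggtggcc
BCL2L11: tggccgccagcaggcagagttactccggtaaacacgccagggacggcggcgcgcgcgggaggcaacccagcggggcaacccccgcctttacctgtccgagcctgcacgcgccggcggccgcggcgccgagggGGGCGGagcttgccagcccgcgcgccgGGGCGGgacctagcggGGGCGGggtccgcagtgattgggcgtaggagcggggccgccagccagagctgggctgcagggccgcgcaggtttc
BAX: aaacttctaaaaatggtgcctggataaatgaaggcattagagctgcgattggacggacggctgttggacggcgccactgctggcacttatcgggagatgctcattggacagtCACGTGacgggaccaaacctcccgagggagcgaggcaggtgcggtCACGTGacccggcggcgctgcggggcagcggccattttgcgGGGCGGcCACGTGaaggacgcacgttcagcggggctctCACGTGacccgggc
The capitals in BAK1 are 2 GC boxes (GGGCGG) and 1 p53 half-site, which shares 1 base with the second GC box. BCL2L11 had 3 GC boxes, and BAX had 4 E-boxes (CACGTG) and 1 GC box. RefSeq entries were matched for 8 of the 10 genes, MCL1 and BIK being the others. On both strands, a GC box stood in 42.6% of 35114 promoter windows of the same length, an E-box in 6.35% and a p53 half-site in 5.57%. A cAMP response element (TGACGTCA, 1.65% of windows), an ATF4 and C/EBP composite site (TGATGNAAN, 3.13%) and an NF-kB consensus site (9.96%) were searched as well and had no match in the windows of the 8 genes. A match describes the letters and shows no binding.

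The libraries held 6750035 to 11932244 gene counts each. CD34, the gene the guides target, had 13 to 28 counts without plasmid, 7 to 10 with dCas9-VP160 alone and 664 to 942 with the guides. Of 8 markers of the HEK293 lineage, 6 had a mean of at least 1 CPM (counts scaled to the library total). The marker levels here had no further scaling, and the gene levels in later paragraphs are TMM-normalised as well. Their summed level was 414 to 460 CPM without plasmid, 583 to 640 with dCas9-VP160 and 645 to 678 with the guides. The summed level of 5 mature kidney tubule markers was 9.08 to 10.5, 4.89 to 6.06 and 5.18 to 6.43 CPM in the same order, with UMOD at 0. Haematopoietic markers summed to at most 5.67 CPM with HBB at 0, endothelial ones to at most 5.1 CPM and fibroblast ones to at most 35.6 CPM. These marker levels moved with the groups in the first 2 lists, and their part in the results was not tested.

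**Figure D1:**
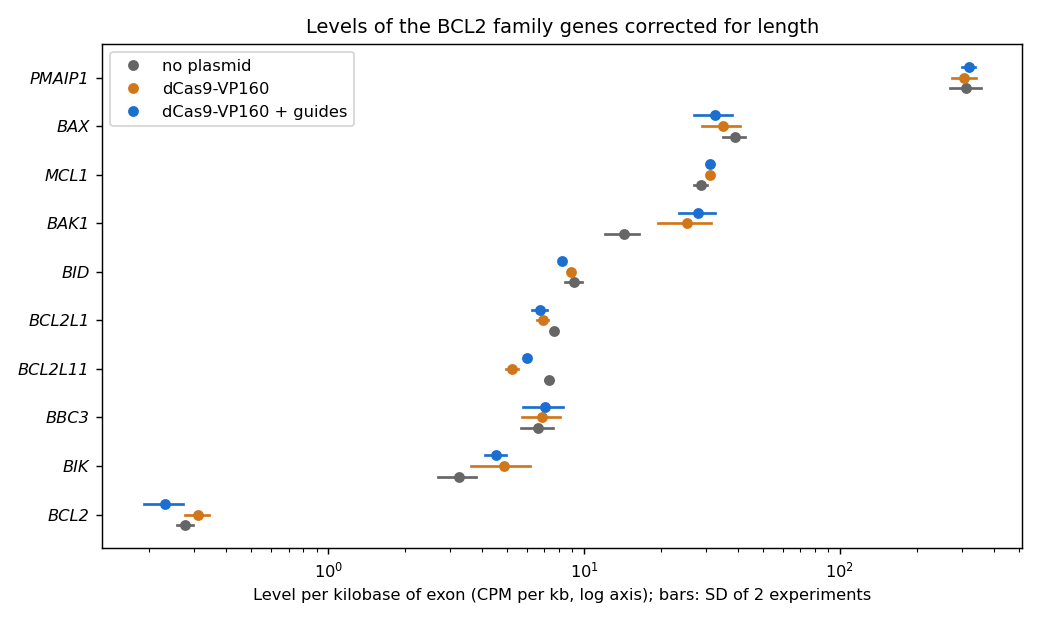
Level of each gene per kilobase of exon (CPM per kb, log axis) in the 3 groups, as the mean of 2 experiments with their SD as bars. PMAIP1 stands above all others and BCL2 below, and BAK1 moves from 14.3 without plasmid to 28.0 with the guides.

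Per kilobase of exon, PMAIP1 was the most abundant of the 10 in cells without plasmid, at 312 ± 43.1 CPM per kb (SD, n = 2 experiments, as for all levels below). BAX followed at 38.8 ± 3.91, MCL1 at 28.6 ± 1.71, BAK1 at 14.3 ± 2.2 and BID at 9.10 ± 0.695 CPM per kb. BCL2L1 at 7.64 ± 0.0275, BCL2L11 at 7.32 ± 0.269 and BBC3 at 6.62 ± 0.944 CPM per kb lay close together, and the SDs of BCL2L11 and BBC3 overlapped. BIK had 3.23 ± 0.548 and BCL2 only 0.276 ± 0.0195 CPM per kb. Of the guardians MCL1 was the most abundant per kilobase, at 3.41 to 5.04 times BCL2L1 in single libraries. BCL2L1 shares 43.0% of its exon length with ABALON on the opposite strand, which had 1079 counts over the 12 libraries beside 2632 of BCL2L1. The level of BCL2L1, its rank and this ratio were not recomputed with those counts. With dCas9-VP160 BAK1 reached 25.4 ± 5.89 CPM per kb, and with the guides 28.0 ± 4.52, where its SD overlapped those of BAX (34.9 ± 5.82 and 32.4 ± 5.57) and, by a small margin in the first case, MCL1 (31.1 ± 0.141 and 31.1 ± 0.428).

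Against cells without plasmid, 5 of the 10 genes changed in cells with dCas9-VP160 at a Benjamini-Hochberg adjusted p under 0.05 in edgeR's quasi-likelihood test. BAK1, BIK and MCL1 rose, and BCL2L11 and BAX fell. DESeq2 called 2 of them, BAK1 and BCL2L11, and edgeR without the experiment as a block called 2. Over all genes DESeq2 called 5861 of 39428 with any count, and edgeR without the block 5564 of 19662. Of all 19662 genes tested 51.2% were called by edgeR with the block, 26.6% higher and 24.6% lower. In that test the share of these 10 genes that changed was near the background. Their median absolute log2 difference was 0.15, against 0.29 over all genes tested. The same medians were 0.22 against 0.31 for the guides against no plasmid, and 0.10 against 0.12 for the guides against dCas9-VP160. All genes tested include ones with few counts and were not matched to the 10 genes for level. With the guides the same 5 genes were called against cells without plasmid, in the same directions, where 52.6% of all genes were called (26.7% higher, 25.9% lower). There DESeq2 called 3, BAK1, BCL2L11 and BAX, and edgeR without the block called 2. Over all genes these settings called 6340 of 39428 and 6098 of 19662. Both comparisons use the same cells without plasmid. Between the guides and dCas9-VP160 alone, which share the plasmid, 0 of 10 were called by edgeR and 0 by DESeq2, with a background of 7.56% in edgeR (4.16% higher, 3.41% lower). Over all genes DESeq2 called 366 of 39428 there. In that comparison the 4 libraries of each group did not overlap for 0 of the 10 genes, and for 8.5% of all genes (4.46% higher, 4.04% lower). At an unadjusted p under 0.05 edgeR had 2 of the 10, BAK1 and BCL2L11, and DESeq2 had 0. The share of all genes at that unadjusted threshold was not computed, so this count has no background. The SDs and tests rest on 2 experiments per group. The spread in the edgeR tests was largely borrowed from other genes, with 2 residual degrees of freedom and a median prior of 24.

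**Figure D2:**
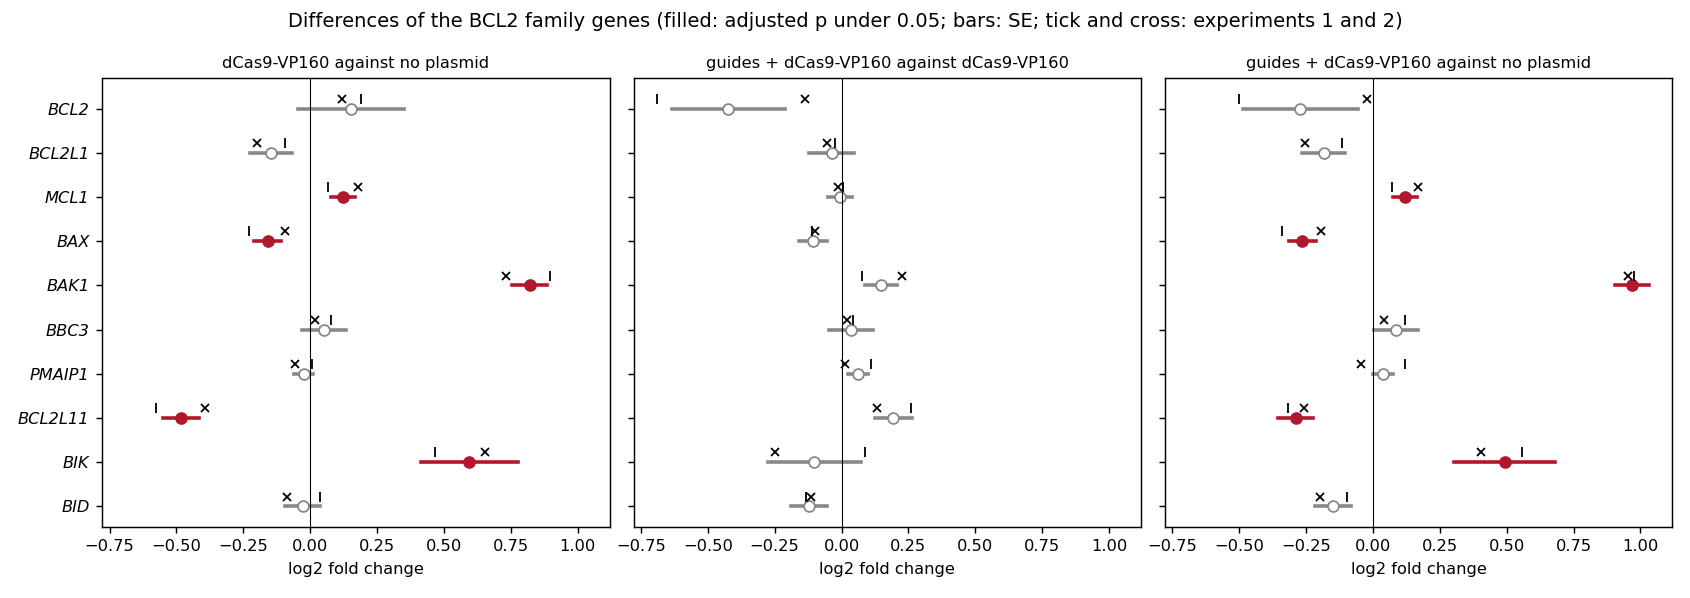
Log2 fold change of each gene in the 3 comparisons, with the approximate SE as bars and the 2 experiments as a tick and a cross. Red filled points passed an adjusted p under 0.05: BAK1 is at 0.82 and 0.97 against no plasmid, BCL2L11 at -0.48 and -0.29, and no point is filled in the middle panel.

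Among the guardians, MCL1 changed by a small amount, and BCL2L1 and BCL2 were not called. Gene positions are those of GENCODE v29 on GRCh38. MCL1 (chr1:150574551-150579738, minus strand), which binds BIM, NOXA and BAK and is turned over within hours, had 124, 136, 118 and 121 CPM in the 4 libraries without plasmid (experiment 1 first). With dCas9-VP160 it had 125 to 144 CPM and with the guides 139, 134, 134 and 135 CPM. Libraries of each pair of groups overlapped. The rise was 0.12 ± 0.045 on the log2 scale with dCas9-VP160 (SE; edgeR adjusted p = 0.0226) and 0.12 ± 0.045 with the guides (edgeR adjusted p = 0.0285). Both calls were lost without replicate 1 of experiment 1 (0.105 in each, edgeR adjusted p = 0.0981 and 0.0997) or replicate 2 of experiment 2 (0.129 in each, edgeR adjusted p = 0.0711 and 0.0697) of the cells without plasmid, and without replicate 1 of experiment 1 with the guides (0.118 and 0.106, edgeR adjusted p = 0.0553 and 0.101). The call with dCas9-VP160 was lost too without its replicate 1 of experiment 1 (0.0801) or of experiment 2 (0.0967), and leaving out all first replicates gave -0.00679. DESeq2 called neither (DESeq2 adjusted p = 0.168 and 0.127). The cause was not tested.

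BCL2L1 (chr20:31664452-31723989, minus strand), which encodes BCL-XL, had 27.6, 23.6, 24.4 and 26.2 CPM without plasmid, 23.4, 24.0, 22.4 and 21.8 CPM with dCas9-VP160, and 20.4 to 23.5 CPM with the guides. The libraries with the guides all lay under those without plasmid, and in that comparison 38.9% of all genes had groups without overlap (19.9% higher, 19% lower), as did 4 of the 10, BCL2L1, BAK1, BCL2L11 and BIK. The differences were -0.15 ± 0.079 (edgeR adjusted p = 0.124) and -0.18 ± 0.081 (edgeR adjusted p = 0.0578), both short of the threshold. Without replicate 2 of experiment 1 of the cells without plasmid they were -0.209 (edgeR adjusted p = 0.0375) and -0.248 (edgeR adjusted p = 0.0153). The second also passed with library totals as the scaling (-0.202, edgeR adjusted p = 0.0371) and on 12 unsummed libraries without or with the technical replicate as a block (-0.196 and -0.197, edgeR adjusted p = 0.0365 and 0.0362). Exons of BCL2L1 overlap those of ABALON on the opposite strand over 1424 bases, 43.0% of its exon length, and the library kits do not mark strand. Adding the ABALON counts, an alternative chosen after seeing the data, made the second difference -0.22 (edgeR adjusted p = 0.0129).

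BCL2 (chr18:63123346-63320128, minus strand), the founding member, was the least abundant, with 15 to 49 counts per library. The 3 groups had 3.25 ± 0.230, 3.63 ± 0.387 and 2.71 ± 0.470 CPM, in the order no plasmid, dCas9-VP160 and guides. The largest difference was -0.42 ± 0.21 between the guides and dCas9-VP160 alone (edgeR adjusted p = 0.254), and its libraries overlapped in all 3 comparisons. With replicates left out that difference ran from -0.813 to -0.0488, the first without replicate 1 and the second without replicate 2 of every group. Leaving out replicate 2 of the guides in experiment 1 alone gave -0.205. It was not called under any alternative that gave an adjusted p.

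**Figure D3:**
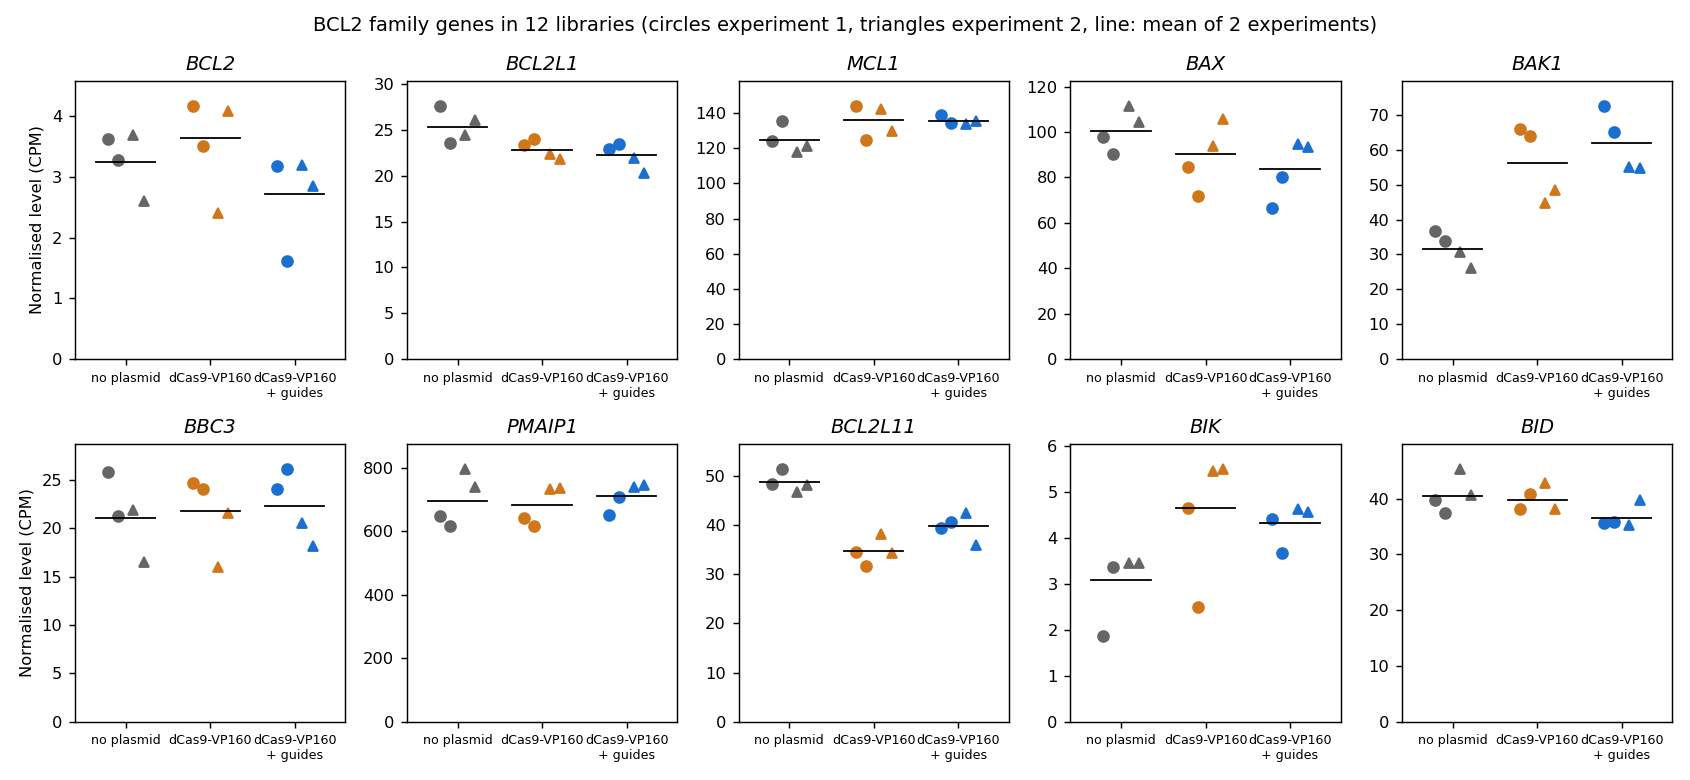
TMM-normalised CPM of the 10 genes in each of 12 libraries, 1 panel per gene with its own axis from 0, circles for experiment 1, triangles for experiment 2 and a line for the mean. BAK1 and BCL2L11 separate the libraries without plasmid (26.2 to 36.7 and 46.7 to 51.4 CPM) from those with dCas9-VP160.

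The pore formers moved in opposite directions. BAK1 (chr6:33572547-33580293, minus strand), which encodes the pore former resident in the mitochondrial membrane, had 36.7 and 33.8 CPM without plasmid in experiment 1, and 30.7 and 26.2 in experiment 2. With dCas9-VP160 it had 66.1, 63.9, 44.8 and 48.4 CPM, and with the guides 72.5, 65.2, 55.0 and 54.7 CPM. All 8 libraries with plasmid lay above the 4 without. The 4 libraries of each group did not overlap for 37.1% of genes in the first comparison (19.4% higher, 17.7% lower), and for 2 of the 10, BAK1 and BCL2L11. The rise was 0.82 ± 0.065 on the log2 scale with dCas9-VP160, a fold of 1.77 (edgeR adjusted p = 4.91e-11), and 0.97 ± 0.065 with the guides, a fold of 1.96 (edgeR adjusted p = 1.51e-12). Within experiments 1 and 2 it was 0.90 and 0.73 with dCas9-VP160 and 0.98 and 0.96 with the guides. The guides against dCas9-VP160 gave 0.15 ± 0.061 (edgeR adjusted p = 0.148).

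BAX (chr19:48954815-48961798, plus strand), the mainly cytosolic pore former, had 98.0, 90.1, 111 and 105 CPM without plasmid, 84.5, 71.8, 93.8 and 106 CPM with dCas9-VP160, and 66.4, 80.4, 94.9 and 93.2 CPM with the guides. The groups overlapped, and experiment 2 was higher than experiment 1 by 0.21, 0.34 and 0.35 on the log2 scale in the 3 groups. Within experiments the differences from no plasmid were -0.23 and -0.09 with dCas9-VP160. BAX fell by 0.16 ± 0.050 with dCas9-VP160 (edgeR adjusted p = 0.00973) and by 0.26 ± 0.051 with the guides (edgeR adjusted p = 9.16e-05). The first call was lost without replicate 1 of no plasmid in experiment 1 (-0.125, edgeR adjusted p = 0.0573), replicate 2 of dCas9-VP160 in experiment 1 (-0.117, edgeR adjusted p = 0.0586) or replicate 1 of dCas9-VP160 in experiment 2 (-0.121, edgeR adjusted p = 0.0544), and in DESeq2 (adjusted p = 0.12). Without the block neither fall was called (edgeR adjusted p = 0.458 and 0.202), and the second also not without replicate 1 of every group (-0.164, edgeR adjusted p = 0.0887).

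The ratio of BAK1 to BAX, both per kilobase, shows the 2 changes together. It was 0.293 to 0.439 in the 4 libraries without plasmid, 0.534 to 1.04 with dCas9-VP160 and 0.677 to 1.28 with the guides. In every group both libraries of experiment 1 were above both of experiment 2. The ratio was made from genes already tested and has no test of its own.

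**Figure D4:**
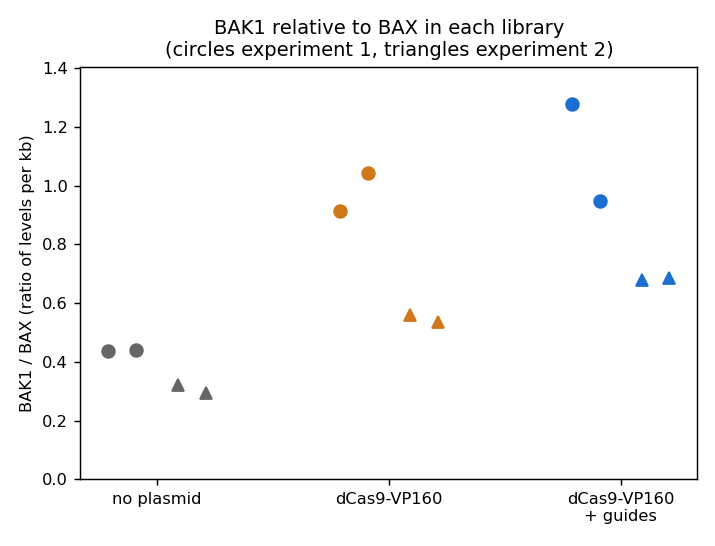
Ratio of BAK1 to BAX levels per kilobase in each library (y axis from 0, no unit), circles for experiment 1 and triangles for experiment 2. All 8 libraries with dCas9-VP160, from 0.534 to 1.28, lie above the 4 without plasmid, from 0.293 to 0.439.

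Of the BH3-only genes, BCL2L11 fell, BIK rose, and BBC3, PMAIP1 and BID were not called in any comparison. BCL2L11 (chr2:111119378-111168447, plus strand) encodes BIM, which binds every guardian and can activate BAX and BAK. It had 48.4, 51.4, 46.7 and 48.1 CPM without plasmid, 34.5, 31.7, 38.2 and 34.4 CPM with dCas9-VP160, and 39.4, 40.6, 42.5 and 36.0 CPM with the guides. Every library without plasmid was above every other library. BCL2L11 fell by 0.48 ± 0.066 with dCas9-VP160 (edgeR adjusted p = 7.62e-07; -0.58 and -0.39 in the 2 experiments) and by 0.29 ± 0.066 with the guides (edgeR adjusted p = 5.69e-04). Without replicate 2 of every group the second was -0.21 and was not called (edgeR adjusted p = 0.0572). With the guides it was 0.19 ± 0.069 above dCas9-VP160 alone, which did not pass (edgeR adjusted p = 0.0902). Without replicate 1 of dCas9-VP160 or replicate 2 of the guides, both in experiment 2, that difference passed, at 0.24 in both cases (edgeR adjusted p = 0.0324 and 0.0484).

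BCL2L11 shares 727 bases, 10.9% of its exon length, with MIR4435-2HG on the opposite strand. That gene, a long noncoding RNA, rose by 0.74 with dCas9-VP160 (edgeR adjusted p = 5.65e-06) and by 0.59 with the guides (edgeR adjusted p = 1.60e-04), opposite to BCL2L11. With its counts added, BCL2L11 was lower by a log2 difference of -0.21 with dCas9-VP160 (edgeR adjusted p = 0.00571) and -0.11 with the guides (edgeR adjusted p = 0.141), so that the second call ended. BAK1 shares 91 bases, 4.1%, with GGNBP1, and with those counts added it was still called at 0.79 and 0.96. Where reads cross both genes, the sums cannot be told apart.

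BIK (chr22:43110748-43129712, plus strand), a BH3-only protein of the endoplasmic reticulum, had few counts, 16 to 66 per library. The libraries without plasmid had 1.87, 3.36, 3.46 and 3.44 CPM, with dCas9-VP160 4.64, 2.49, 5.46 and 5.49 CPM, and with the guides 4.42, 3.66, 4.63 and 4.55 CPM. The guides' libraries all lay above those without plasmid, while 1 library with dCas9-VP160 alone lay below 3 of them. The rise was 0.59 ± 0.18 with dCas9-VP160 (edgeR adjusted p = 0.00771) and 0.49 ± 0.19 with the guides (edgeR adjusted p = 0.0303). Without replicate 1 of dCas9-VP160 in experiment 1 the first was 0.50 (edgeR adjusted p = 0.0506). The second was 0.383 (edgeR adjusted p = 0.12) without replicate 1 of no plasmid in experiment 1, 0.493 (edgeR adjusted p = 0.057) without replicate 2 of no plasmid in experiment 2 and 0.41 (edgeR adjusted p = 0.107) without replicate 1 of the guides in experiment 1. With replicates left out the first ran from 0.275 to 0.931 and the second from 0.27 to 0.77. The lowest values, without replicate 1 of every group, were not called (edgeR adjusted p = 0.442 and 0.461), and the highest were those without replicate 2. DESeq2 called neither rise (DESeq2 adjusted p = 0.188 and 0.255).

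PMAIP1 (chr18:59899948-59904306, plus strand), which encodes NOXA, the partner that directs MCL1 to degradation, held 697 ± 96.4 CPM without plasmid, 685 ± 73.5 with dCas9-VP160 and 713 ± 42.0 with the guides. Its libraries ranged from 617 to 797 CPM, and the groups overlapped. The differences were -0.02, 0.06 and 0.04 in the order dCas9-VP160 against no plasmid, guides against dCas9-VP160 and guides against no plasmid, each with an SE of 0.036. Per kilobase PMAIP1 was 8.72 to 13.2 times MCL1 across libraries.

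BBC3 (chr19:47220822-47232766, minus strand), which encodes PUMA, a p53 target that binds all guardians, had 21.1 ± 3.0, 21.8 ± 3.74 and 22.4 ± 4.04 CPM in the 3 groups. Its differences were 0.05, 0.03 and 0.09 with SEs of 0.082 to 0.083. BID (chr22:17734138-17774770, minus strand), which an initiator caspase cleaves to link death receptors to mitochondria, had 40.5 ± 3.09, 39.7 ± 0.651 and 36.5 ± 0.961 CPM. Its difference was -0.03 ± 0.065 with dCas9-VP160 and -0.15 ± 0.067 with the guides, against no plasmid (edgeR adjusted p = 0.0646 for the second). Without replicate 2 of experiment 1 of the cells without plasmid the second was -0.18 (edgeR adjusted p = 0.0343). It passed as well without replicate 2 of every group (-0.259, edgeR adjusted p = 0.0233), with library totals (edgeR adjusted p = 0.0385) and on 12 unsummed libraries without or with the technical block (edgeR adjusted p = 0.048 and 0.0486), so 5 of 24 alternatives called BID.

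The 2 experiments gave levels that differed for several genes. From experiment 1 to 2, BAK1 changed by -0.31, -0.48 and -0.33 on the log2 scale without plasmid, with dCas9-VP160 and with the guides, BBC3 by -0.29, -0.35 and -0.37, and PMAIP1 by 0.28, 0.22 and 0.12. The response to plasmid itself was tested for a difference between experiments over the 12 single libraries, so its error reflects technical replicates. For the 10 genes 0 responses differed in edgeR and 0 in DESeq2, and 0 had an unadjusted p under 0.05 in either. The share of all genes at the unadjusted threshold was not computed here either. Over 17218 genes edgeR called 0.0116% in the comparison of dCas9-VP160 with no plasmid, 0% with the guides against dCas9-VP160 and 0% with the guides against no plasmid.

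**Figure D5:**
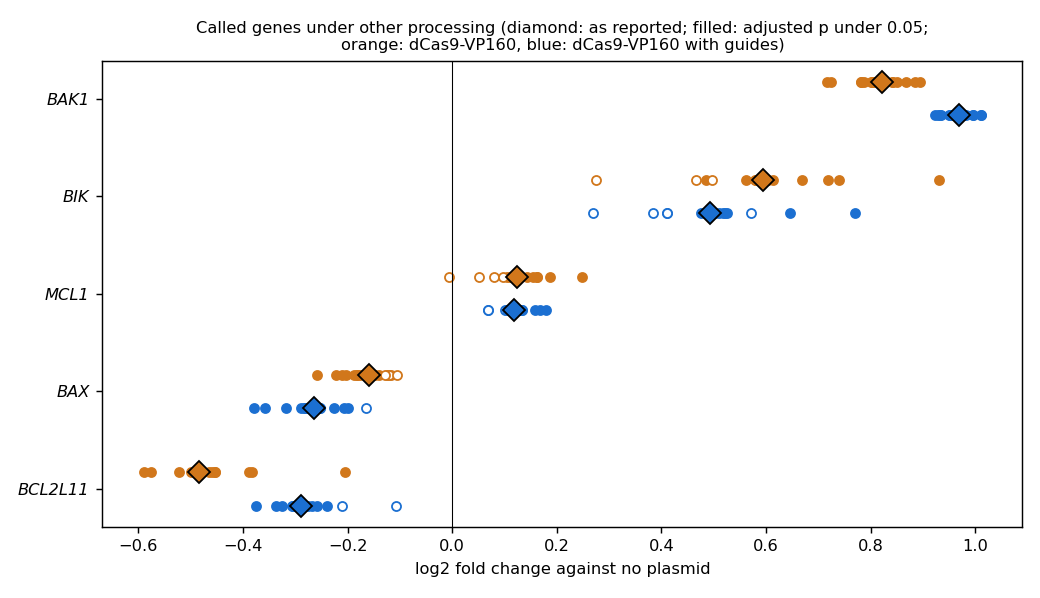
Log2 fold change against no plasmid of the 5 called genes as reported (diamonds) and under 24 other settings (circles), orange for dCas9-VP160 and blue for the guides, filled where the adjusted p was under 0.05. BAK1 stays between 0.717 and 1.01, all filled, whereas MCL1 reaches -0.01.

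The genes whose levels followed BAK1 most closely over 12 libraries were SLC35A2, a nucleotide sugar transporter, C19orf48P and CSF1, which encodes a macrophage growth factor. The root mean square difference of their log2 levels from BAK1, each centred on its own mean, was 0.106, 0.107 and 0.111 among 12791 candidates, against an SD of 0.483 for BAK1 itself. For BCL2, the gene with the largest difference between the guides and dCas9-VP160, the nearest genes SENP8, VWDE and ZNF529-AS1 were at 0.226, 0.229 and 0.229 against an SD of 0.351. Their own log2 differences in that comparison were -0.305, -0.228 and -0.0102, against -0.42 for BCL2. The difference of BCL2 was not called and rested on 15 to 49 counts per library. The likeness is a description and shares its libraries with the tests.

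The rest of the pathway was read from lists chosen with earlier results of these data known. The counts below stand beside the shares over all genes, which were 51.2% with dCas9-VP160, 52.6% with the guides against no plasmid and 7.56% between the guides and dCas9-VP160. Of 15 further BCL2 family genes 12 were tested, and 4 rose and 1 fell with dCas9-VP160, beside 26.6% higher and 24.6% lower of all genes (median 0.07, against -0.00 over all genes tested). This count of called genes, 5 of 12, is under the 51.2% of all genes. BMF, a BH3-only gene, fell from 24.2 ± 3.63 CPM without plasmid to 9.52 ± 0.518 with dCas9-VP160 and 9.86 ± 1.47 with the guides, by 1.33 and 1.29 on the log2 scale (edgeR adjusted p = 3.92e-11 and 7.78e-11). BNIP1 rose by 0.79 and BNIP3, a mitophagy receptor, by 0.50 with dCas9-VP160. HRK, a BH3-only gene of neurons, rose by 0.48 with dCas9-VP160 (edgeR adjusted p = 5.00e-06) and by 0.64 with the guides, and the 0.16 between these groups did not pass (edgeR adjusted p = 0.187). With the guides against no plasmid 3 of the 12 rose and 1 fell, beside 52.6% called of all genes. Between the guides and dCas9-VP160 1 of the 12 rose, BNIP3L, by 0.15, beside 4.16% higher of all genes.

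Downstream of the pore, 14 genes of the apoptosome and caspases were tested, and 4 rose and 2 fell with dCas9-VP160 (median 0.03), and 5 rose and 1 fell with the guides against no plasmid. Both counts, 6 of 14, are under the 51.2% and 52.6% of all genes. Between the guides and dCas9-VP160 2 rose and 0 fell, beside 7.56% called of all genes. CYCS, which encodes the cytochrome c released by the pore, rose from 210.9 ± 12.1 CPM to 343 ± 3.29 with dCas9-VP160, by 0.70 (edgeR adjusted p = 2.3e-14), and to 370 ± 4.72 with the guides. APAF1, the scaffold of the apoptosome, rose between dCas9-VP160 and the guides from 67.9 ± 1.33 to 85.7 ± 0.113 CPM, by 0.33 (edgeR adjusted p = 2e-04), and PARP1 by 0.16. PARP1 had 617 ± 39.3 CPM without plasmid, 539 ± 27.0 with dCas9-VP160 and 601 ± 61.7 with the guides. PARP1 fell by 0.19 with dCas9-VP160 and was not called with the guides against no plasmid (-0.04, edgeR adjusted p = 0.378). CASP9, the initiator caspase of the apoptosome, fell by 0.38 with the guides against no plasmid. Of 8 inhibitor of apoptosis genes and antagonists tested, 3 rose and 3 fell with dCas9-VP160 (median 0.06), and 2 rose and 2 fell with the guides against no plasmid, beside 51.2% and 52.6% called of all genes. BIRC3, a ubiquitin ligase of that family, rose by 1.89, from 2.93 ± 0.591 to 10.8 ± 1.47 CPM, and then fell by 0.46 between dCas9-VP160 and the guides. XIAP, a direct caspase inhibitor, had 32.4 ± 0.574 CPM without plasmid, 26.8 ± 0.731 with dCas9-VP160 and 32.0 ± 0.152 with the guides. It fell by 0.27 with dCas9-VP160 (edgeR adjusted p = 0.00222) and rose by 0.26 from there to the guides. Against no plasmid XIAP was not called with the guides (-0.02, edgeR adjusted p = 0.852).

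At the other entry to the pathway, the death receptor arm, 10 genes were tested and 4 rose and 3 fell with dCas9-VP160 (median -0.09), and 3 rose and 2 fell with the guides against no plasmid, beside 51.2% and 52.6% called of all genes. FAS, a death receptor and p53 target, rose from 45.5 ± 0.164 to 81.7 ± 3.81 CPM, by 0.84 (edgeR adjusted p = 1.21e-12). TNFRSF10D, a decoy receptor for TRAIL, had 87.4 ± 0.513 CPM without plasmid, 139.7 ± 4.6 with dCas9-VP160 and 183 ± 0.444 with the guides, a rise of 0.39 between the last 2 (edgeR adjusted p = 1.77e-06). TNFRSF10A, a TRAIL receptor, rose by 0.53, and by a further 0.27 with the guides. These 2 receptor genes were the calls of the arm between the guides and dCas9-VP160, beside 7.56% of all genes.

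Among 13 tested p53 targets with a role in apoptosis outside the family, 7 rose and 2 fell with dCas9-VP160 (median 0.13), 5 rose and 0 fell between dCas9-VP160 and the guides (median 0.12), and 9 rose and 1 fell with the guides against no plasmid. Of all genes 26.6% were higher and 24.6% lower in the first comparison, 4.16% and 3.41% in the second and 26.7% and 25.9% in the third. TP53I3 had 11.7 ± 0.332, 42.1 ± 2.92 and 58.5 ± 4.26 CPM in the 3 groups, a rise of 1.86 (edgeR adjusted p = 9.67e-16) and then of 0.47. AEN, a nuclease, rose by 1.19 with dCas9-VP160. Of the 2 that fell there, CDKN1A went from 493 ± 56.5 to 408 ± 68.9 CPM, by 0.28 (edgeR adjusted p = 2.22e-07). CDKN1A was also lower with the guides against no plasmid, by 0.16 (edgeR adjusted p = 3.70e-04). It was 0.12 higher with the guides than with dCas9-VP160 alone (edgeR adjusted p = 0.0426). BBC3 and PMAIP1, which p53 also controls, were not called, BAX fell and BAK1 rose. The list includes FAS and APAF1, already counted above.

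Of 11 tested transcription factors that act on BH3-only genes, 7 rose and 3 fell with dCas9-VP160 (median 0.37), and 7 rose and 3 fell with the guides against no plasmid (median 0.43), beside 51.2% and 52.6% called of all genes. Between the guides and dCas9-VP160 DDIT3 rose by 0.17 and ATF3 fell by 0.17. DDIT3, the stress factor CHOP, rose from 31.9 ± 1.75 to 141 ± 7.40 CPM, by 2.15 (edgeR adjusted p = 3.2e-21), CEBPB by 1.34 and ATF3 by 1.19. Of 11 genes of MCL1 and BIM protein turnover, 3 rose and 7 fell with dCas9-VP160 (median -0.14), and 3 rose and 6 fell with the guides against no plasmid, beside 26.6% higher and 24.6% lower of all genes in the first comparison and 26.7% and 25.9% in the second. HUWE1, a ubiquitin ligase for MCL1, fell from 263 ± 11.6 to 200.7 ± 10.6 CPM, by 0.39. MAPK8, a JNK kinase, fell by 0.37 and its relative MAPK9 rose by 0.32. Of 11 partners at the mitochondrial outer membrane, 2 rose and 4 fell with dCas9-VP160, by at most 0.21 among those named by the rule, DNM1L, TSPO and VDAC3, and 1 rose and 5 fell with the guides against no plasmid, beside 51.2% and 52.6% called of all genes. The rise was that of MTCH2, a membrane receptor for BID, by 0.23.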

How the data were processed

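RNA of 12 HEK293T libraries was prepared with SMART-Seq HT and Nextera XT, per the labels' protocols. These kits do not mark strand, although the series' design text names a directional method. The authors deposited raw counts of reads per gene, and Trim Galore 0.3.7, STAR 2.6.0c, Picard 2.17.1, DESeq2 1.16.1 and the build hg38 stand in the submitters' processing notes. The counting program and its annotation are not given in sources used here. A second table by the authors, of 97 genes, holds 0 of the 10 and was not used.

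Counts of 92 spike-ins, at most 0.719% of a library, were kept out. Gene symbols matched 56321 identifiers, and exon lengths and overlaps came from GENCODE v29. The 2 technical replicates of a group and experiment were summed, giving 6 libraries of 16359839 to 20968535 tested counts. These were tested in edgeR 4.0.16 (R 4.3.3; filterByExpr, TMM, robust quasi-likelihood test, experiment as a block, Benjamini-Hochberg over 19662 genes), with DESeq2 1.42.0 as an alternative. Residual degrees of freedom were 2, with a median prior of 24. An SE is the absolute log2 fold change over the square root of F. Within-experiment values used a prior count of 2. A count of 3 corresponds to 0.251 to 0.444 CPM.

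The labels say that an experiment is a shared batch of cells, which pairs the groups. The differences between experiments correlated between groups with r of 0.616, 0.62 and 0.631 over 12875 genes. Replicates within an experiment are technical, so p-values rest on 2 batches of 1 cell line.

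All 10 members are named, and from every other list up to 3 called genes per comparison with the largest absolute change and a mean of at least 5 CPM. CDKN1A is named in addition, as a p53 target that fell. One gene that this rule selects is not reported here. Members and lists were chosen with earlier results of these data known. The scripts were tested on simulated data. Alternatives were other scaling, no filter, unsummed libraries, no block, DESeq2, single experiments, libraries left out and, chosen after seeing the data, counts of overlapping genes added.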

Additional observations from a re-analysis of the deposited data

Results flagged for a closer look

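Each gene was examined in each group of 4 libraries for a library far from the other 3 by Dixon's criterion, in 30 groups, and chance marks about 1 in 20. BIK stood at 1.87 CPM in replicate 1 of experiment 1 without plasmid, where the other 3 libraries had 3.36 to 3.46 CPM. That library enters both BIK calls, and its BIK value came from 16 counts. BID stood at 39.7 CPM in replicate 2 of experiment 2 with the guides, where the others had 35.2 to 35.8 CPM, and BID was not called in any comparison.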

How the results depend on the processing

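The 30 differences (10 genes, 3 comparisons) were recomputed under 24 alternatives each. Of 720 values 637 kept direction and side of the threshold, 43 lost a call, 13 gained one and 27 changed sign. The rise of BAK1 was called under all 24 with dCas9-VP160 (0.717 to 0.895, highest edgeR or DESeq2 adjusted p 0.00905) and with the guides (0.922 to 1.01, highest 0.00386), and so was the fall of BCL2L11 with dCas9-VP160 (-0.589 to -0.205). The calls of MCL1, BAX and BIK were lost under several, mainly with fewer libraries, without the block or in DESeq2, and that of BCL2L11 with the guides against no plasmid under 2, without replicate 2 (-0.21) and with overlapping counts added (-0.107).

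With dCas9-VP160 against no plasmid, 5 genes of the family were called. Without the replicate block this was 2, in DESeq2 2 and in experiment 1 alone 3, and leaving out replicates gave 2 to 6. For the guides against no plasmid the count of 5 became 2 without the block, 3 in DESeq2, 3 in experiment 1 alone and 2 to 7 with replicates left out, and for the guides against dCas9-VP160 0 became 0 to 1. Over all genes, 10070 calls with dCas9-VP160 became 5564 without the block and 5861 in DESeq2, and 10347 with the guides became 6098 and 6340. Between guides and dCas9-VP160, 1487 became 1, 366, 446 in experiment 1 and 292 in experiment 2, and 417 to 1870 with replicates left out. The lowest was without replicate 1. Of those 1487, 54.9% were higher, against 31.5% with library totals and 78.1% in DESeq2. The cause of these shifts was not tested.

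Signs changed only for differences reported at 0.152 or less in absolute value, none of them called except MCL1 with dCas9-VP160 as reported. Some alternative values were larger than that, such as -0.225 for BBC3. Leaving out replicates against no plasmid with dCas9-VP160 gave -0.143 to 0.367 for BCL2, -0.00679 to 0.249 for MCL1, -0.225 to 0.291 for BBC3, -0.0589 to 0.00122 for PMAIP1 and -0.0678 to 0.0175 for BID. For the guides against dCas9-VP160 it gave -0.0699 to 0.0761 for MCL1, -0.0568 to 0.135 for BBC3 and -0.228 to 0.00615 for BIK, and against no plasmid -0.0905 to 0.234 for BBC3 and -0.0427 to 0.106 for PMAIP1. Experiment 1 alone gave 0.028 for BID with dCas9-VP160, and 0.0189 for MCL1 and 0.106 for BIK between guides and dCas9-VP160. MCL1 there was 0.00601 with RLE and 0.00826 in DESeq2, and BBC3 -0.0027 with library totals. Experiment 2 alone gave -0.05 for PMAIP1 with the guides against no plasmid. BCL2 and BIK had at most 66 counts per library, and the part of depth in their spread was not tested.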
